A study of Homo sapiens with 6 samples.

Results

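The glycolytic enzymes and the genes of the hypoxia-inducible factor (HIF) system were examined in the human liposarcoma line SW872-S. The 38 genes were taken by symbol from the 60843 genes of the deposited expression table, and each symbol matched 1 row. They comprise HIF subunits, oxygen sensors, carbonic anhydrases, sugar and lactate transporters, the enzymes of glycolysis and its regulators, and further HIF targets. RNA sequencing was done on 3 control libraries, called NC, and on 3 libraries from cells with a plasmid that overexpresses TP53INP2, an autophagy protein, called TP53INP2_OE. All 6 libraries came from the same line, which is 1 model of liposarcoma, grown in serum-containing medium, and the labels give no oxygen level. Because 2 unnamed cell sources are mentioned in the design text, a further difference between the groups cannot be told apart from the plasmid. Whether separate cultures were used within a group is not stated, and the p-values therefore reflect only library-to-library spread, possibly technical.

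HIF is a pair of proteins, an oxygen-labile alpha subunit (HIF1A or EPAS1) and the stable partner ARNT. With oxygen present, prolyl hydroxylases of the EGLN family mark the alpha subunit, VHL recognises the mark and the protein is destroyed, so much of the control acts on protein and not on RNA. When the alpha subunit persists, it binds DNA with ARNT and raises genes for glucose uptake, glycolysis, lactate export and acid handling, among many others. Tumour cells often run glycolysis to lactate even with oxygen,.

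Values are FPKM, fragments per kilobase of gene, scaled to a library total. They rested on 16038062 to 17607612 assigned reads per library, and 36 of the 38 genes had at least 100 reads in every library. The overexpressed gene checked the labels. TP53INP2 was at 10.6, 9.45 and 9.67 FPKM in NC and at 18.9, 23.4 and 27.1 FPKM in TP53INP2_OE. Differences were tested with limma on log2(FPKM + 1) over the 14791 genes that averaged 0.5 FPKM or more, and a gene passed with an adjusted p below 0.05 (Benjamini-Hochberg over all tested genes). Of 10 mesenchymal markers 5 were under 1 FPKM, with DCN at 0 in every library. Of the 5 tested, COL1A1, COL5A1, PDGFRB and S100A4 fell and VIM (731 FPKM in NC) did not pass. COL1A1 went from 121 to 88.95 FPKM and COL5A1 from 50.5 to 37.6, and both passed with the correction for GC content described below. The mesenchymal markers summed to 1050 to 1120 FPKM in NC and 1000 to 1040 in TP53INP2_OE. Of 6 adipocyte genes 5 were under 1 FPKM, with ADIPOQ, LEP and FABP4 at 0 in every library. The remaining gene, LPL, averaged 13.1 FPKM over the NC libraries, against 11.9 over those of TP53INP2_OE. The groups did not overlap for LPL. It did not pass (limma adjusted p = 0.0781), but it passed as lower with the correction (log2 fold change -0.25, limma adjusted p = 0.0349). The adipocyte sum ranged from 12.5 to 13.7 FPKM across NC libraries and from 11.4 to 12.5 across TP53INP2_OE libraries. Leukocyte markers summed to at most 0.534 FPKM in any library. Endothelial markers summed to 48.9 to 53.2 FPKM in NC and 48.2 to 49.9 in TP53INP2_OE. Among them CDH5 fell from 32.3 to 27.8 FPKM (limma adjusted p = 0.0323) and TEK rose from 11.5 to 14.1 (0.0081). Neither passed with the correction. Epithelial markers, nearly all of it keratins 8 and 18, summed to 81.5 to 83.5 FPKM in NC and 63.8 to 75.8 in TP53INP2_OE. The genes KRT8 and KRT18 passed as lower (limma adjusted p = 0.0146 and 0.0211), and neither passed with the correction (0.172 and 0.256). The part of all these markers in the results was not tested. In bulk RNA, fewer cells of a kind and less RNA per cell cannot be told apart.

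All 38 genes passed the expression filter. Of them, 5 rose (HIF1A, SLC16A1, LDHA, PDK1, KDM3A) and 10 fell (EPAS1, CA9, SLC16A3, HK1, PFKL, PFKM, PFKP, TPI1, ENO1, PKM) in TP53INP2_OE, which is 39.5% of the group. Among all tested genes 35.0% passed, with 16.4% higher and 18.6% lower, so the share of these genes that passed was near the background. Their median log2 fold change was -0.041, against 0.0032 over all tested genes. No gene moved by more than 0.52 on the log2 scale. The libraries of the 2 groups did not overlap for 21 of the 38 genes (7 higher, 14 lower), while 50.8% of all tested genes did not overlap (25.2% higher, 25.6% lower). Fold changes across all genes followed the GC content of the transcripts, so results are also given with the trend on GC content and length removed from every library, here called the corrected value. After that correction 2 genes were higher and 7 lower. Of all genes tested after it, 10.9% passed in either direction and 6.90% as lower. The 7 that passed both ways in the same direction were HIF1A, EPAS1, SLC16A3, PFKL, TPI1, ENO1 and PKM. The corrected calls rested on all 6 libraries. Leaving out any 1 of them left between 0 and 1 higher and between 1 and 5 lower, with 0 higher without NC replicate 1 and 1 lower without NC replicate 2.

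**Figure D1:**
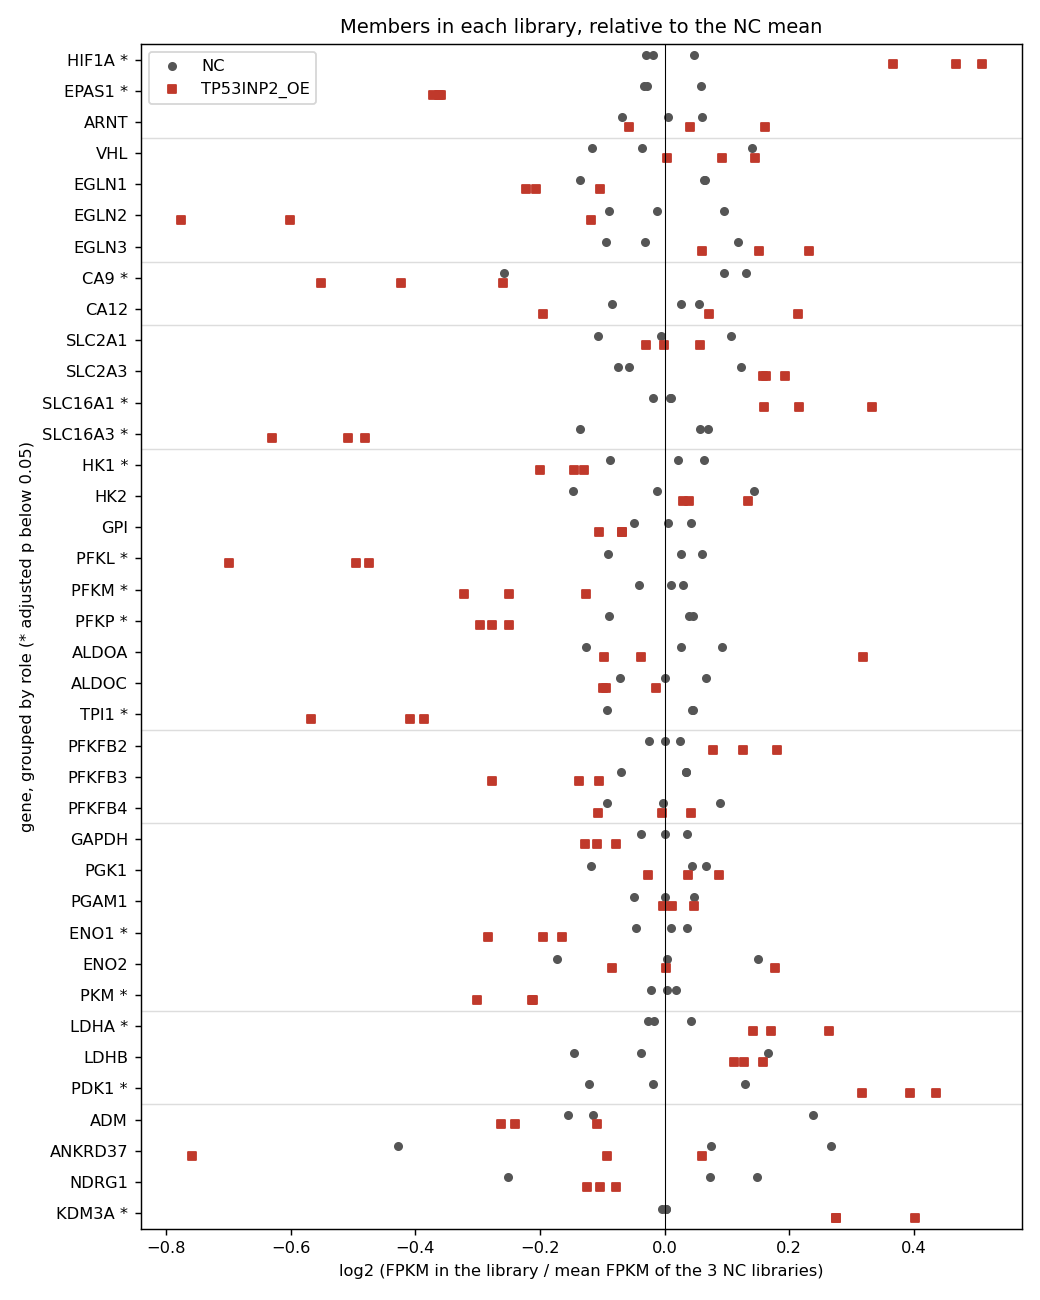
FPKM of each of the 38 genes in each library, as the log2 ratio to the mean of the 3 NC libraries (x axis), with genes in rows grouped by role, NC as grey circles and TP53INP2_OE as red squares. Asterisks mark the 15 genes with an adjusted p below 0.05; HIF1A squares lie to the right of all circles and those of EPAS1, SLC16A3, PFKL and TPI1 to the left.

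The alpha subunits moved in opposite directions. HIF1A (chromosome 14, 61695513 to 61748259) encodes the broadly expressed alpha subunit. It was at 101, 101 and 106 FPKM in the NC libraries and at 132, 146 and 142 FPKM in the TP53INP2_OE libraries. The lowest TP53INP2_OE library lay well above the highest NC library, and the log2 fold change was 0.44 ± 0.046 (SE; limma adjusted p = 0.00276). EPAS1 (chromosome 2, 46293667 to 46386697) encodes HIF-2 alpha, the alpha subunit first described in endothelium. It was at 61.7, 58.0 and 57.9 FPKM in NC and at 46.0, 45.7 and 46.1 FPKM in TP53INP2_OE, so all 3 of the latter were lower and nearly equal to each other. Its log2 fold change was -0.36 ± 0.036 (SE; limma adjusted p = 0.00276). Corrected log2 fold changes were 0.22 for HIF1A (limma adjusted p = 0.0109) and -0.29 for EPAS1 (0.00711). HIF1A and EPAS1 were the only called genes of the 38 that kept their call in all 16 alternatives applied to single genes. Those 16 did not combine the correction with a left-out library. With that combination 0 of the 38 genes were higher without NC replicate 1, so HIF1A lost its corrected call there. ARNT, the shared partner, was at 6.48 ± 0.291 FPKM in the NC libraries and 6.71 ± 0.513 in TP53INP2_OE (SD, n = 3 each), with overlapping libraries. The 95% interval of its log2 fold change ran from -0.11 to 0.19.

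The short core of HIF binding sites is ACGTG or GCGTG. Promoter stretches that hold it are shown for 6 of the genes that passed, those with the largest changes among genes with a core in the 250 bases before a start and a stretch outside the exons of GENCODE release 29. Sequences are from RefSeq on GRCh38.p14, 5′ to 3′ on the gene's strand, and capitals mark the core on either strand (CACGT and CACGC are its reverse complements). The stretch of HIF1A lies at chr14:61695279-61695343 (+), that of EPAS1 at chr2:46297260-46297324 (+), SLC16A3 at chr17:82228944-82229021 (+), PFKL at chr21:44299859-44299923 (+), PFKP at chr10:3104518-3104608 (+) and LDHA at chr11:18396198-18396262 (+). Those of EPAS1, SLC16A3, PFKP and LDHA lie inside the listed span of the gene, before an internal start. For SLC16A3 and LDHA a stretch at another start was left out because it overlapped an exon.
HIF1A: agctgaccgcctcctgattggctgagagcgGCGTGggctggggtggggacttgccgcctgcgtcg
EPAS1: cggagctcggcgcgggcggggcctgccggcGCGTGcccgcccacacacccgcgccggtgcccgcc
SLC16A3: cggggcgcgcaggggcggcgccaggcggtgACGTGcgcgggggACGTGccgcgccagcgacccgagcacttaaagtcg
PFKL: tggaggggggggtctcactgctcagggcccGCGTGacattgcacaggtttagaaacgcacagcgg
PFKP: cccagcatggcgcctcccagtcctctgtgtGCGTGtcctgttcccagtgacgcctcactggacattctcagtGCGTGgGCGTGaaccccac
LDHA: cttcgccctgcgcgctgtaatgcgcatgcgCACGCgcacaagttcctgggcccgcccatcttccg
The core is common. In windows of 300 bases around gene starts (250 before, 50 after), it was found in 66.1% of 62 windows of 33 matched genes of the group and in 48.4% of all 35116 windows. Genes with several starts have several windows, some of them overlapping, and so more chances to hold a core. The shares of genes given below were not matched for the number of windows. The longer palindrome CACGTG, which contains the core on both strands and is bound by other factors too, was in 8 windows of the group (12.9%) and in 7.26% of all windows. Among matched genes a core was present in at least 1 window for 4 of 4 that rose, 10 of 10 that fell and 16 of 19 that did not pass, in all 90.9% of the matched genes, against 52.4% of all genes in the promoter table. The core was therefore found in genes of both directions, as in the stretches above, where HIF1A and LDHA rose and the other 4 fell. A match of letters is a description and no measured binding.

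None of the oxygen sensors passed. EGLN1, the main prolyl hydroxylase for HIF1A, was at 7.90, 9.08 and 9.07 FPKM in NC and at 7.44, 8.08 and 7.53 FPKM in TP53INP2_OE. The groups overlapped, because NC replicate 1 lay below TP53INP2_OE replicate 2. Its log2 fold change was -0.16 (limma adjusted p = 0.105), and it passed as lower after the correction (-0.26, 0.035) and without NC replicate 1 (0.0442). EGLN3, a hydroxylase that HIF itself induces, was at 10.4 ± 0.796 and 11.5 ± 0.681 FPKM (SD, n = 3 each), and VHL, the recognition subunit of the ubiquitin ligase, at 8.08 ± 0.748 and 8.55 ± 0.418. EGLN2 was low, at 1.15 ± 0.0743 and 0.832 ± 0.204 FPKM (SD, n = 3 each). All 3 TP53INP2_OE values of EGLN2 lay below NC, and it passed among protein-coding genes (limma adjusted p = 0.0471) and with voom on reads (0.0201). In GENCODE 29 EGLN2 shares 30.6% of its exonic bases with other genes on the same strand, so its level is uncertain.

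Of the carbonic anhydrases, which turn carbon dioxide into bicarbonate at the cell surface, CA9 fell. CA9, a classical HIF target and hypoxia marker, was at 9.81, 10.0 and 7.68 FPKM in NC and at 6.26, 6.84 and 7.67 FPKM in TP53INP2_OE. The groups were barely apart, with NC replicate 3 next to TP53INP2_OE replicate 3. The log2 fold change was -0.36 ± 0.11 (SE; limma adjusted p = 0.0437). The corrected value was -0.10 (0.573), and the call was also lost without any 1 of NC replicates 1 and 2 and TP53INP2_OE replicates 1 and 2 (limma adjusted p from 0.109 to 0.133). With no filter on low values (0.12) and with the replicate block (0.0931) CA9 did not pass either. CA9 shares 38.5% of its exonic bases with ARHGEF39 and other genes on the other strand, and no source used here states whether reads were assigned by strand. CA12 was at 2.11 ± 0.107 and 2.17 ± 0.305 FPKM (SD, n = 3 each).

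The lactate carriers moved apart. SLC16A3 (chromosome 17, 82228397 to 82261129) encodes MCT4, the lactate exporter of glycolytic cells and a HIF target, and its promoter stretch above holds 2 cores in a GC-rich run. It was at 45.5, 45.9 and 39.8 FPKM in NC and at 30.7, 28.3 and 31.4 FPKM in TP53INP2_OE. All TP53INP2_OE libraries lay below all NC libraries, and the log2 fold change was -0.52 ± 0.067 (SE; limma adjusted p = 0.00327), or -0.26 corrected (0.0227). SLC16A1, which encodes MCT1, a carrier that moves lactate in either direction, was at 35.9, 36.6 and 36.6 FPKM in NC and at 40.6, 45.8 and 42.2 in TP53INP2_OE. It rose in all 3 libraries relative to NC, with a log2 fold change of 0.23 ± 0.048 (SE; limma adjusted p = 0.0123), while the corrected value of 0.11 did not pass (0.13). SLC2A1, the glucose transporter GLUT1, was at 82.3 ± 6.08 and 82.8 ± 2.53 FPKM (SD, n = 3 each), and the 95% interval of its log2 fold change ran from -0.13 to 0.15. SLC2A3, the high-affinity transporter GLUT3, was at 25.7 ± 1.99 and 28.9 ± 0.391 FPKM (SD, n = 3 each). Its TP53INP2_OE libraries all lay above NC, but the difference did not pass (log2 fold change 0.17, limma adjusted p = 0.0569), except without NC replicate 2 (0.0179) and in the 5 settings TPM, mean of at least 5 FPKM, protein-coding genes, quantile normalization and voom (0.00735 to 0.0431). Corrected, it was 0.097 (0.286).

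In upper glycolysis, from glucose to the triose phosphates, 5 of 9 genes fell and none rose. Of all tested genes 18.6% fell. After the correction 2 of the 9 were lower, against 6.90% of all genes. HK1, the constitutive hexokinase, was at 98.7 ± 5.29 FPKM in the NC libraries and 88.5 ± 2.25 in TP53INP2_OE (SD, n = 3 each), a log2 fold change of -0.15 (limma adjusted p = 0.0404). This call was lost without any 1 library except NC replicate 3 (0.0689 to 0.122) and after the correction (-0.078, 0.218). It was also lost with TPM (0.0597), no filter on low values (0.103), quantile normalization (0.163) and the replicate block (0.0835). HK2, the inducible hexokinase and a HIF target, was at 28.9 ± 2.92 and 30.3 ± 1.23 FPKM (SD, n = 3 each), with overlapping libraries. GPI, the isomerase that follows, was slightly lower in every TP53INP2_OE library (49.4 ± 1.56 and 46.8 ± 0.684 FPKM; SD, n = 3 each) and did not pass (limma adjusted p = 0.132).

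All 3 phosphofructokinase genes, whose products form the tetramer that commits sugar to glycolysis, fell, and only PFKL passed after the correction. PFKL (chromosome 21, 44300051 to 44327376), the liver-type subunit, was at 17.4, 17.1 and 15.7 FPKM in NC and at 12.0, 10.3 and 11.9 FPKM in TP53INP2_OE. The groups were far apart, and the log2 fold change was -0.52 ± 0.069 (SE; limma adjusted p = 0.00341), or -0.24 corrected (0.0201). PFKP, the platelet-type subunit and here the most abundant of the 3, was at 79.1, 78.7 and 72.0 FPKM in NC and at 62.4, 63.2 and 64.4 FPKM in TP53INP2_OE. It fell by 0.27 on the log2 scale (limma adjusted p = 0.00574), and the corrected value was -0.085 (0.223). PFKM, the muscle-type subunit, was at 11.9 ± 0.30 and 10.2 ± 0.702 FPKM (SD, n = 3 each; log2 fold change -0.21, limma adjusted p = 0.0244). Its call was lost without any 1 library except TP53INP2_OE replicate 1 (0.0527 to 0.0827), with no filter on low values (0.0557) and after the correction (-0.17, 0.0704).

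TPI1 (chromosome 12, 6867119 to 6870948) interconverts the 2 triose phosphates, and its RNA was among the 100 most abundant of the table. It was at 323, 324 and 294 FPKM in NC and at 240.2, 212 and 237 FPKM in TP53INP2_OE. No library of either group came near the other group, and the log2 fold change was -0.45 ± 0.062 (SE; limma adjusted p = 0.00373), or -0.26 corrected (0.0177). Rows of its pseudogenes held 1.23% as many reads as TPI1 itself. The aldolases, which split fructose bisphosphate, were low for their step. ALDOA was at 7.80 ± 0.60 and 8.21 ± 1.32 FPKM and ALDOC, the brain-type enzyme, at 14.5 ± 0.697 and 13.8 ± 0.465 (SD, n = 3 each), and neither passed. In GENCODE 29 ALDOA shares 42.3% of its exonic bases with genes on the same strand, mainly AC093512.2, which was itself at 1.61 FPKM. No source used here states how reads falling in both were assigned, so the ALDOA level is uncertain and its low rank beside TPI1 and GAPDH may not be read as a level of the enzyme's RNA.

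The bifunctional enzymes make or remove fructose 2,6-bisphosphate, the strongest activator of phosphofructokinase. PFKFB3, the isoenzyme with the highest kinase activity and a HIF target, was at 35.5, 35.5 and 33.0 FPKM in NC and at 32.2, 28.6 and 31.5 FPKM in TP53INP2_OE. The groups did not overlap, but the log2 fold change of -0.17 did not pass (limma adjusted p = 0.0549). It passed without TP53INP2_OE replicate 1 (0.0493), with voom (0.00495), and when only protein-coding genes (0.0251) or those averaging 5 FPKM or more (0.0263) were tested, and was -0.025 after the correction. PFKFB4 was at 8.18 ± 0.516 and 8.06 ± 0.424 FPKM and PFKFB2 at 1.96 ± 0.0339 and 2.14 ± 0.0760 (SD, n = 3 each), and neither passed.

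In lower glycolysis, from glyceraldehyde phosphate to pyruvate, 2 of 6 genes fell, against 18.6% of all tested genes. After the correction 2 were lower and 1 higher. ENO1 (chromosome 1, 8861000 to 8879190), the main enolase, was at 751, 738 and 709.6 FPKM in NC and at 640.3, 602 and 653 FPKM in TP53INP2_OE. All TP53INP2_OE libraries were lower, by 0.21 on the log2 scale (SE 0.043; limma adjusted p = 0.0112), or -0.14 corrected (0.0439), and the call was lost with no filter on low values (0.126). PKM (chromosome 15, 72199029 to 72231822), the pyruvate kinase gene of most tissues and tumours, was at 379.8, 376 and 369 FPKM in NC and at 324, 304 and 324 FPKM in TP53INP2_OE. The difference of -0.24 ± 0.037 (SE; limma adjusted p = 0.00482) was well outside the spread of either group, and was -0.16 corrected (0.017). Under quantile normalization PKM no longer passed (0.205). Its M1 and M2 splice forms are summed in 1 row and were not separated.

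GAPDH, often used as a reference gene, was the most abundant of the 38 and ranked 11 in the whole table. It was at 1547, 1509 and 1469.9 FPKM in NC and at 1429, 1381 and 1399 FPKM in TP53INP2_OE. All 3 TP53INP2_OE values were lower than NC by a small margin, and the log2 fold change was -0.10 (95% interval -0.19 to -0.018; limma adjusted p = 0.0637). GAPDH passed as lower with voom (0.00229) and when only genes averaging 5 FPKM or more were tested (0.0489). Its sign turned after the correction (0.12, adjusted p = 0.0416), so the direction of GAPDH depended on it. PGK1, the first ATP-yielding enzyme of the pathway, was at 302 ± 20.6 and 309 ± 12.2 FPKM and PGAM1, the mutase, at 288 ± 9.52 and 292 ± 5.28 (SD, n = 3 each). Neither passed, and the 95% interval of PGAM1 ran from -0.067 to 0.10, but quantile normalization called both as higher (limma adjusted p = 0.0462 and 0.00712). ENO2, the neuronal enolase and a HIF target, was at 21.5 ± 2.39 and 22.0 ± 2.06 FPKM (SD, n = 3 each) and did not pass.

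At the branch after pyruvate, 2 of 3 genes rose, against 16.4% of all tested genes, and none passed after the correction. LDHA (chromosome 11, 18394560 to 18408425), which makes lactate and regenerates NAD, was at 396, 413 and 393 FPKM in NC and at 442, 481 and 451 FPKM in TP53INP2_OE. All TP53INP2_OE libraries were above NC, with a log2 fold change of 0.19 ± 0.043 (SE; limma adjusted p = 0.0146). The call was lost without NC replicate 1 (0.0575), with no filter on low values (0.0967) and after the correction (0.080, 0.212). LDHB, the heart-type subunit, was at only 9.51 ± 1.06 and 10.4 ± 0.170 FPKM (SD, n = 3 each) and passed only without NC replicate 3 (0.0357). LDHB shares 33.4% of its exonic bases with genes on the same strand, so its level, and its share beside LDHA, are uncertain. PDK1, the kinase that shuts pyruvate dehydrogenase under hypoxia, was at 6.19, 7.36 and 6.64 FPKM in NC and at 8.38, 8.84 and 9.10 FPKM in TP53INP2_OE. The groups were clearly apart, and the log2 fold change was 0.34 ± 0.066 (SE; limma adjusted p = 0.00946), or 0.13 corrected (0.26).

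Among the other HIF targets only KDM3A, a histone demethylase, passed. It was at 5.96, 5.98 and 5.98 FPKM in NC and at 7.23, 7.89 and 7.22 FPKM in TP53INP2_OE, with a log2 fold change of 0.28 ± 0.048 (SE; limma adjusted p = 0.00679), or 0.12 corrected (0.109). ADM, the vasodilator peptide adrenomedullin, was at 18.1 ± 2.82 and 15.7 ± 0.916 FPKM, with overlapping libraries (SD, n = 3 each). NDRG1, a stress-responsive gene, was at 149, 157 and 119 FPKM in NC and at 129.6, 134 and 131 FPKM in TP53INP2_OE. NC replicate 3 was the lowest library of either group for NDRG1, and without it NDRG1 passed as lower (limma adjusted p = 0.0182). ANKRD37, a hypoxia-induced gene, was at 1.81 ± 0.425 and 1.55 ± 0.428 FPKM (SD, n = 3 each) on as few as 39 reads, and shares 35.2% of its exonic bases with genes on the other strand.

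The members of each step were summed within a library, as a description without a test. The 17 genes from hexokinase to lactate dehydrogenase together made up 4112 to 4345 FPKM in NC and 3899.7 to 3971 in TP53INP2_OE, which is 1.72% and 1.61% of all FPKM. The step with the largest drop was triose-phosphate isomerase (ratio of group means 0.731), followed by phosphofructokinase (0.807), pyruvate kinase (0.846) and enolase (0.867). Phosphoglycerate kinase (1.02) and mutase (1.01) were nearly level, and lactate dehydrogenase was the only step whose TP53INP2_OE libraries all lay above NC (410.05 ± 9.62 and 468 ± 20.2 FPKM; SD, n = 3 each). The pathway was thus not lower or higher throughout. The sums are of uncorrected values. In corrected values GAPDH, PGAM1 and, by a narrow margin, ALDOC lay above NC in every TP53INP2_OE library, and LDHA overlapped. These sums are per length as the table gives it, and GAPDH alone holds a large part of the total.

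**Figure D2:**
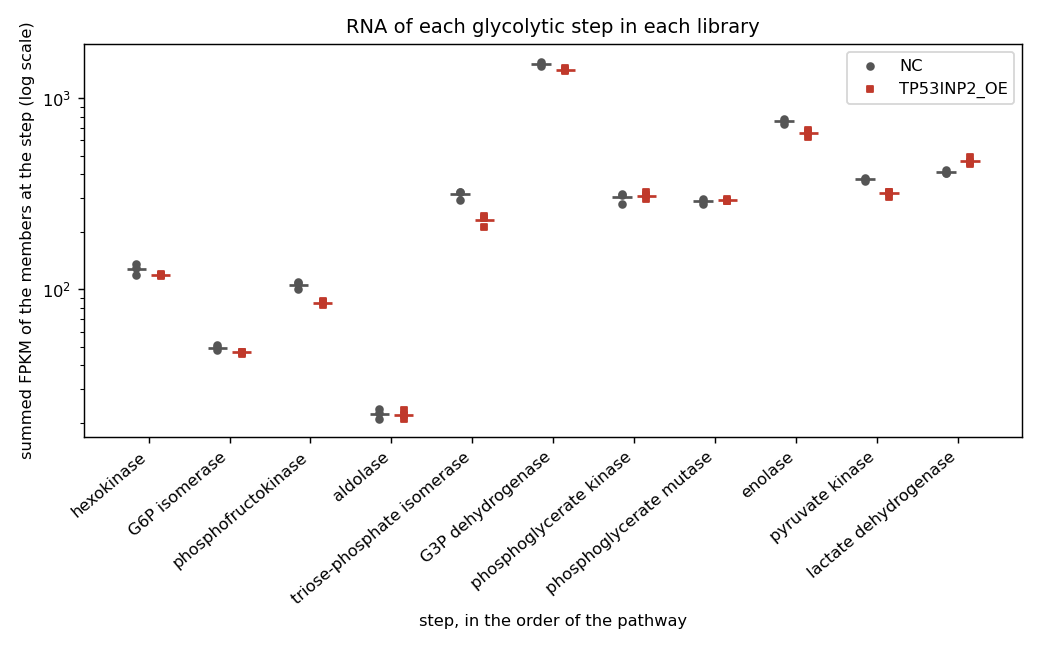
Summed FPKM of the genes at each glycolytic step (y axis, log scale), in pathway order, with each library as a point (NC grey circles, TP53INP2_OE red squares) and group means as lines. Triose-phosphate isomerase falls from 314 to 229.5 FPKM and lactate dehydrogenase goes from 410.05 to 468, while phosphoglycerate kinase and mutase lie level.

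Ratios between related genes within a library do not depend on how libraries are scaled. Of 13 pairs compared, the libraries did not overlap for 6. Of single tested genes 50.8% did not overlap, and the share among other gene pairs was not computed. The smallest p that an exact two-sided permutation test of 3 against 3 libraries can give is 0.1, and these 6 pairs reached it (0.217 after Benjamini-Hochberg over the 13 pairs), so no pair can pass. EPAS1 made up 37.8%, 36.6% and 35.3% of the summed FPKM of EPAS1 and HIF1A in NC and 25.8%, 23.8% and 24.5% in TP53INP2_OE. The log2 ratio of EPAS1 to HIF1A was lower by a difference of -0.81 (-0.51 from the corrected values). SLC16A3 made up 55.9%, 55.6% and 52.1% of SLC16A3 and SLC16A1 in NC and 43.1%, 38.2% and 42.6% in TP53INP2_OE. By FPKM, SLC16A3 was thus the higher of the 2 in every NC library and SLC16A1 in every TP53INP2_OE library. FPKM divides by the listed lengths, 8995 bases for SLC16A3 and 5312 for SLC16A1. In reads SLC16A3 was the higher in all 6 libraries, so the order of the 2 depends on those lengths. The log2 ratio of SLC16A3 to SLC16A1 differed by -0.77 (-0.37 corrected).

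The other 4 separated pairs differed by less. HK2 was 22.6 ± 0.910% of HK1 and HK2 in the NC libraries and 25.5 ± 1.25% in TP53INP2_OE (SD, n = 3 each). EGLN3 was 56.2%, 55.4% and 51.7% of EGLN3 and EGLN1 in NC and 59.3%, 60.1% and 60.5% in TP53INP2_OE. PFKP was 82.1 ± 0.128% and 84.7 ± 1.11% of PFKP and PFKL, and SLC2A3 23.8 ± 0.555% and 25.9 ± 0.646% of SLC2A3 and SLC2A1 (SD, n = 3 each). The difference of the SLC2A3 to SLC2A1 log2 ratio turned from 0.16 to -0.042 with the corrected values, while the other 5 kept their sign. LDHA was 97.7 ± 0.301% and 97.8 ± 0.114% of LDHA and LDHB (SD, n = 3 each), with overlapping libraries.

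**Figure D3:**
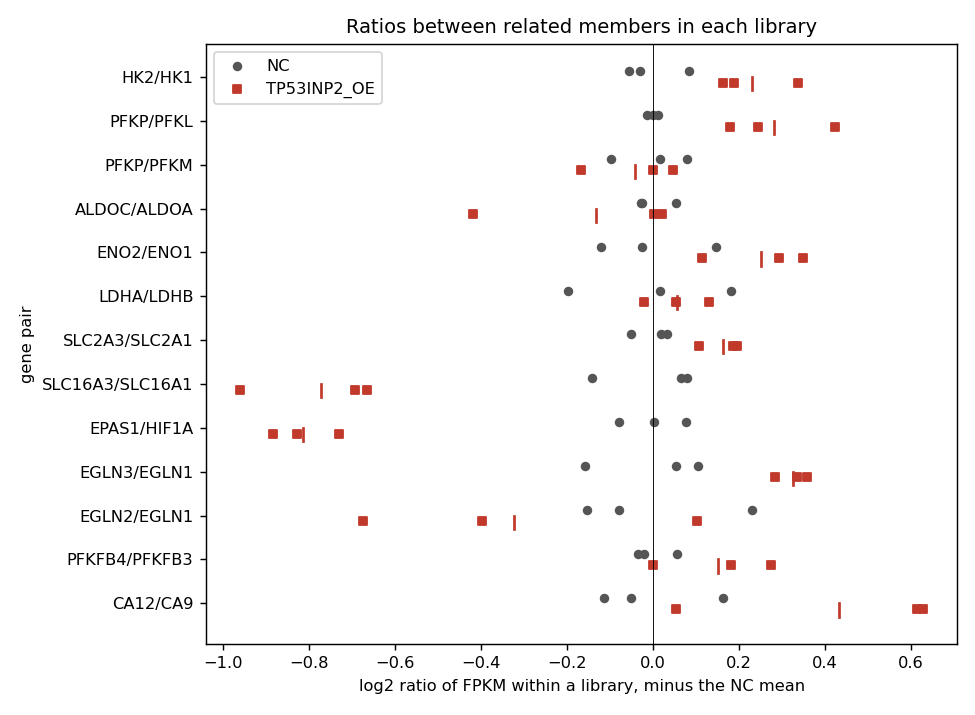
Log2 ratio of FPKM of the first to the second gene of each pair within a library, minus the mean of the NC libraries (x axis), for 13 pairs (NC grey circles, TP53INP2_OE red squares, red line the TP53INP2_OE mean). EPAS1/HIF1A and SLC16A3/SLC16A1 lie farthest to the left, at mean differences of -0.81 and -0.77.

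The direction of change followed GC content in these genes as it did in the transcriptome. GC content of the longest transcript ran from 36.4% to 44.0% in the 5 genes that rose and from 51.5% to 64.1% in the 10 that fell. The rank correlation (Spearman's rho) of GC content with log2 fold change was -0.734 across the 38 genes and -0.677 across 14548 tested genes, with genes as units that share the same 6 libraries. Below 45% GC, 5 of 9 members rose and none fell (median log2 fold change 0.19), and of all tested genes there 36.4% rose (median 0.17). At 60% GC or more, all 3 members, CA9, SLC16A3 and PFKL, fell (median -0.52), against 57.1% of all tested genes (median -0.29). Between 55% and 60% GC, 2 of 9 members fell (median -0.17), against 43.5% of all tested genes (median -0.20). Between 50% and 55% GC, 5 of 12 members fell and 0 rose (median -0.085), while 21.3% of all tested genes there fell (median -0.091). Between 45% and 50% GC, 0 of 5 members rose and 0 fell, while 10.2% of all tested genes there rose and 6.29% fell. After the correction, rho across the 38 genes was -0.152 and 19 of 38 had a positive value, with a median of 0.017. The correction removes a change tied to GC content whatever its source.

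**Figure D4:**
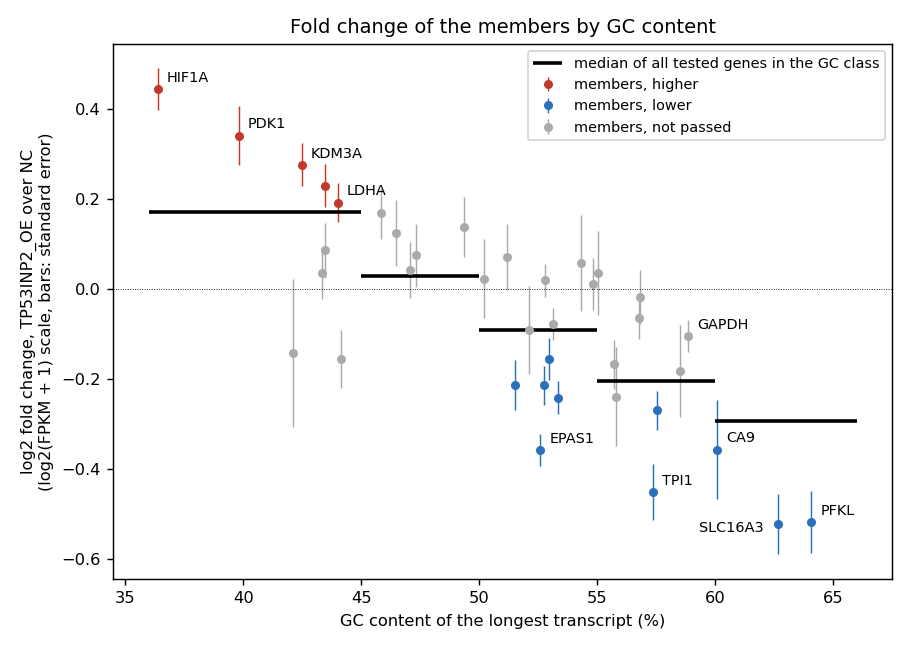
Log2 fold change of each of the 38 genes (y axis, bars are standard errors) against the GC content of its longest transcript (x axis), with black lines for the median of all tested genes in each GC class. The genes that rose lie at 36.4% to 44.0% GC and those that fell at 51.5% to 64.1%; HIF1A lies above the black line of its class and EPAS1, TPI1, SLC16A3 and PFKL below theirs.

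**Figure D5:**
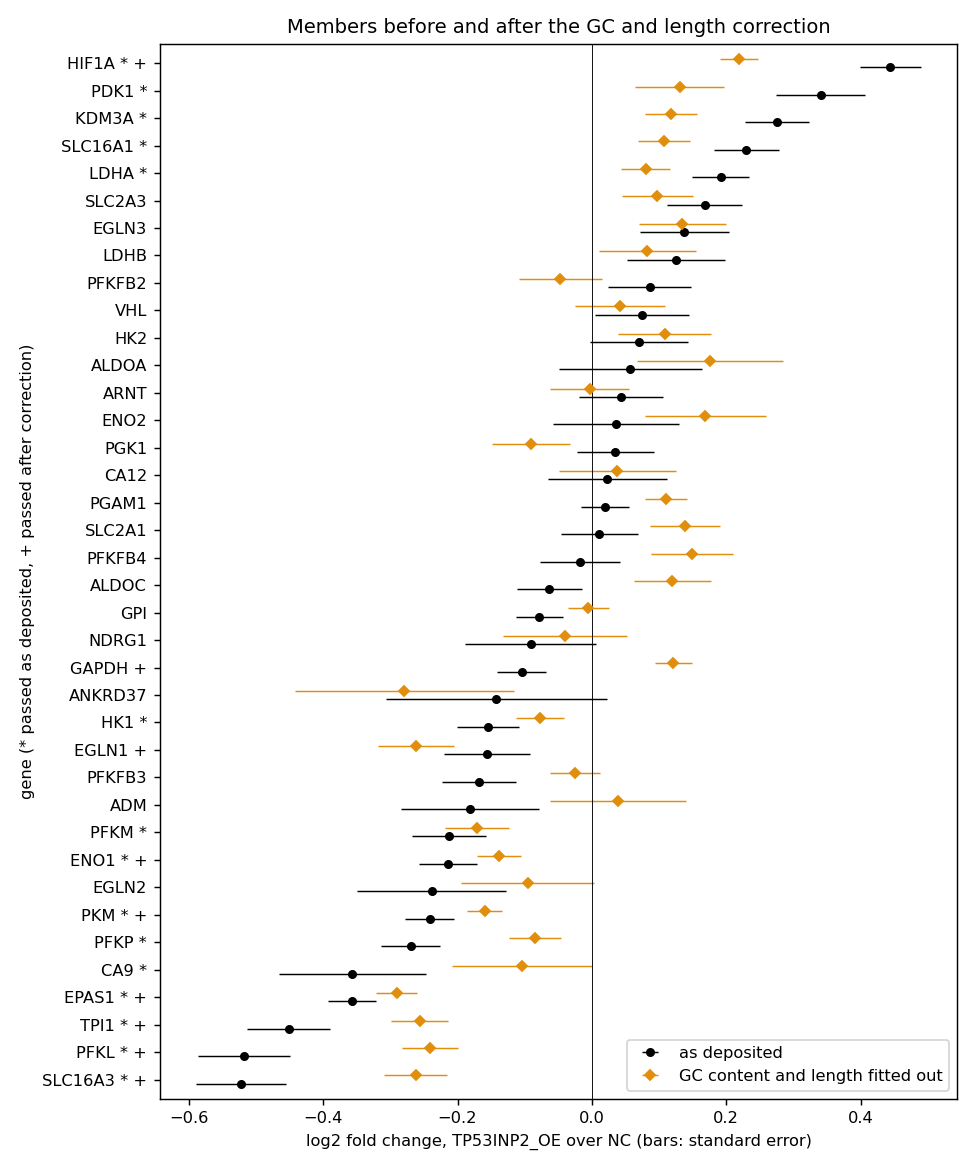
Log2 fold change of each gene (x axis, bars are standard errors) as deposited (black circles) and after GC content and length were fitted out (orange diamonds), with genes ordered by the former, * for genes that passed as deposited and + for those that passed corrected. HIF1A goes from 0.44 to 0.22 and SLC16A3 from -0.52 to -0.26, while GAPDH crosses from -0.10 to 0.12.

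Genes of neighbouring pathways were taken from lists, and they are counted beside the same background (35.0% of all tested genes passed, 10.9% after the correction). Of 32 tested other hypoxia-induced genes 14 rose and 5 fell (median log2 fold change 0.18), and 4 passed as higher and 0 as lower after the correction (median 0.060). ERO1A, an oxidase of disulfide formation, rose from 37.8 ± 2.43 to 54.8 ± 4.18 FPKM, and PLOD2, a collagen lysyl hydroxylase, from 58.7 ± 3.22 to 84.2 ± 7.71 (SD, n = 3 each), with corrected log2 fold changes of 0.31 and 0.27 that passed. INSIG2, a sterol sensor partner, rose by 0.59 on the log2 scale, or 0.36 corrected (limma adjusted p = 0.072). Of 12 HIF cofactors and VHL complex genes 2 rose and 1 fell. The coactivator EP300 rose from 11.5 ± 0.323 to 12.8 ± 0.219 FPKM (SD, n = 3 each; corrected 0.19, limma adjusted p = 0.0266). The uncorrected EP300 call was lost without any 1 library except NC replicate 3 and TP53INP2_OE replicate 2 (limma adjusted p from 0.0647 to 0.095) and with the replicate block (0.0614). CUL2, the scaffold of the VHL ligase, rose by 0.25 and its adaptor ELOB fell by 0.27, and neither passed after the correction (0.056 and 0.0031). ELOB also lost its call without NC replicate 1 or NC replicate 3 (limma adjusted p up to 0.0605).

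Of 12 other glycolytic isoenzymes and regulators 3 rose and 2 fell. BPGM, which makes 2,3-bisphosphoglycerate, rose from 9.73 ± 0.843 to 13.9 ± 1.06 FPKM, and GPD2, the mitochondrial glycerol phosphate dehydrogenase, from 13.6 ± 0.524 to 17.9 ± 0.859 (SD, n = 3 each), and both passed after the correction (0.38 and 0.18). BSG, the chaperone of MCT1 and MCT4, fell from 101 ± 3.77 to 82.6 ± 1.32 FPKM (SD, n = 3 each) and was at -0.027 corrected. Of 14 genes of pyruvate entry into mitochondria 2 rose and 3 fell. PDHA1, the catalytic subunit of pyruvate dehydrogenase that PDK1 phosphorylates, fell by 0.30 on the log2 scale from 22.4 ± 0.621 FPKM in NC. MPC2, a subunit of the mitochondrial pyruvate carrier, fell from 8.66 ± 0.542 to 6.95 ± 0.369 FPKM (SD, n = 3 each). Their corrected values were farther from 0, at -0.35 and -0.42, and passed (limma adjusted p = 0.00729 and 0.014). PC, pyruvate carboxylase, had a log2 fold change of -0.27 and a corrected value of -0.023.

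Of 20 tricarboxylic acid cycle genes 3 rose and 6 fell. After the correction 0 were higher and 1 lower, a gene that had not passed before. IDH3B fell by 0.27 on the log2 scale and SUCLA2 rose by 0.27, and neither passed after the correction (-0.14 and 0.084). Of 9 pentose phosphate genes 1 rose and 3 fell, and none passed in either direction after the correction. TKT, transketolase, fell from 40.8 ± 1.47 to 33.1 ± 2.21 FPKM and PGLS, the lactonase, from 13.7 ± 1.16 to 9.96 ± 1.30 (SD, n = 3 each). PGLS lost its call without NC replicate 1 (limma adjusted p = 0.0617) or NC replicate 2 (0.059), and with no filter on low values (0.0525). Of 14 glycogen and hexosamine genes 7 rose and 2 fell, and 2 and 1 after the correction, with 1 of the 2 higher not called before. PYGB, the brain-type glycogen phosphorylase, fell from 105 ± 1.53 to 80.6 ± 3.51 FPKM and PCK2 from 16.2 ± 1.32 to 11.7 ± 0.280, while GNPNAT1, of hexosamine synthesis, rose from 18.4 ± 0.439 to 23.8 ± 1.41 (SD, n = 3 each). After the correction PYGB (-0.18, limma adjusted p = 0.0111) and GNPNAT1 (0.17, 0.0446) passed, and PCK2 did not (-0.17, 0.0759).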

How the data were processed

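Per the labels, RNA of SW872-S cells was taken up in Trizol and made into Illumina TruSeq libraries. The authors deposited FPKM values with gene name, position and length. The submitters' processing notes list the builds GRCh38 and mm8 and the aligner Bowtie 0.12.2, without a role, and no source used here states the counting step. Multiplying FPKM by length and dividing by the smallest such product above 0 in the library gave whole reads for 100% of values (tolerance 0.01), which served as depth. All 38 genes lay on the chromosome given by GENCODE 29 (GRCh38), and 36 shared a start or end with it. Positions are as in the table.

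The test was limma 3.58.1 (R 4.3.3) on log2(FPKM + 1), empirical Bayes with trend, for genes that averaged 0.5 FPKM or more. In the correction, a gene's deviation from its mean was modelled per library by natural splines of GC content and of log2 length (5 degrees of freedom for either), and this trend was subtracted. The limma test, but not the correction, was tested on simulated data. All 38 genes and TP53INP2 were named. From each other list up to 3 genes past the threshold with the largest change and a mean of at least 1 FPKM were named. Some genes that this rule names are not reported here. The members, lists and rules were chosen with earlier results of these data known. Alternatives covered the pseudocount, filters, scalings, voom on recovered reads, a replicate block and each library left out. Combining the correction with a left-out library, and with the paralog ratios, was chosen after seeing the data.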

Additional observations from a re-analysis of the deposited data

How the results depend on the processing

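The change of TP53INP2 kept its direction and call in every alternative run. Of 603 single-gene values of the 38 genes under the alternatives, 510 kept their direction and side of the threshold, 46 lost the call, 20 gained one and 27 turned sign. With 1 library left out, 4 to 6 of the 38 genes were higher and 7 to 10 lower. Under GC and length correction 2 were higher, under quantile normalization 8 were higher, and with no filter on low values 6 were lower. The correction with 1 library left out gave 0 to 1 higher and 1 to 5 lower (3 without TP53INP2_OE replicate 2), and the replicate block with the correction gave 1 higher and 1 lower. The replicate numbers share no stated source, and deviations of same-numbered libraries correlated at 0.0107 to 0.017, so the numbers were not taken to pair the libraries. The replicate block alone gave 5 higher and 8 lower. In the other lists (32 higher, 22 lower) the correction gave 9 and 4, the replicate block with it 4 and 2, and leaving out 1 library 22 to 30 higher and 12 to 23 lower, with 12 lower without NC replicate 1 and 14 without NC replicate 2. Among the ratios, the correction gave 0.157 for PFKP/PFKL, 0.086 for PFKP/PFKM, -0.042 for SLC2A3/SLC2A1, -0.37 for SLC16A3/SLC16A1, -0.509 for EPAS1/HIF1A, 0.167 for EGLN2/EGLN1 and 0.142 for CA12/CA9, and PFKP/PFKL ran from 0.212 to 0.334 with 1 library left out. Genes that turned sign had not passed before. The correction, with or without the block, gave -0.003 for ARNT, 0.12 for ALDOC, -0.047 for PFKFB2, 0.149 for PFKFB4, 0.121 for GAPDH, -0.091 for PGK1 and 0.038 for ADM. With 1 library left out, values ran from -0.007 to 0.089 for ARNT, -0.04 to 0.099 for CA12, -0.04 to 0.065 for SLC2A1, -0.057 to 0.128 for ALDOA, -0.059 to 0.022 for PFKFB4, -0.022 to 0.069 for PGK1, -0.005 to 0.043 for PGAM1, -0.044 to 0.11 for ENO2 and -0.267 to 0.001 for ANKRD37. The cause of these changes was not tested. Depth limits EGLN2 and ANKRD37 most, with as few as 76 and 39 reads in a library.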

Other observations

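The following genes were chosen after their values were seen. GBE1, the glycogen branching enzyme, rose from 21.1 ± 0.476 FPKM in NC to 27.1 ± 0.407 in TP53INP2_OE (SD, n = 3 each) and passed after the correction too (limma, corrected log2 fold change 0.24). VEGFA fell from 15.0 ± 1.69 to 12.4 ± 0.136 FPKM and DDIT4 from 101.6 ± 14.1 to 71.2 ± 0.546 (SD, n = 3 each), and neither passed after the correction. The VEGFA call was also lost without any 1 library except NC replicate 3 (limma adjusted p up to 0.12). No filter on low values (0.11), quantile normalization (0.0539) and the replicate block (0.0502) lost it too.

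MIF, a cytokine gene of the hypoxia list, was listed at 0 in 4 of 6 libraries and rested on at most 1 read in the others. In GENCODE 29 MIF shares 61.9% of its exonic bases with genes on the other strand and 32.2% with genes on the same strand. ALDOA, the other gene of a low listed level beside abundant neighbours in its pathway, shares 42.3% on the same strand. Whether shared bases set these levels was not tested.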
